A study of Arabidopsis thaliana with 75 samples.

Results

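Wild type leaves of Arabidopsis thaliana were compared 12 and 18 hours after they had been cut with a blade, to find which genes changed over this 6-hour interval. The libraries were chosen by their titles: 3 labelled WT 12h and 3 labelled WT 18h, which are 6 of the 75 libraries in the count table. The tissue was the 8th leaf of 4-week-old plants, the labelled genotype was WT, and the labelled treatment was a wound. The accession of the plants, the light regime and the time of day at harvest are not given in the sources used here. Neighbouring wild type groups of 3 libraries each, taken 0 hours, 6 hours and 1 day (1D) after wounding, were used to place the levels. For some genes the levels at other hours of the first day are also given. All of these groups carry the wound treatment in their labels and no unwounded leaf of the later times was analysed here, so hours since the cut and hour of the day cannot be told apart. Nothing in the labels says whether the replicates came from separate plants, so the p-values below measure only the spread between libraries. For the gene tests this spread was estimated in 1 fit of all 75 libraries, including those of other genotypes.

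The total count per library was 51856012 to 66361563 at 12h and 47687674 to 63678379 at 18h, in estimated counts of which 2.63 correspond to about 1 sequenced fragment. Levels are in CPM, counts scaled to a library of 1000000. Within each group the libraries correlated at 0.983 to 0.987 across genes. The first principal component held 50% of the variance of the 6 libraries and separated 12h from 18h. The second held 15.6% and spread the 18h libraries, with replicate 1 at -54.62 and replicate 3 at 44.59. Replicate 3 of 18h had the highest or lowest level of the 6 libraries in several gene groups, given below for the photosystem, cold and flavonoid lists. Plastid-encoded genes took a share of the counts of 0.337% ± 0.0895 (SD, n = 3) at 12h and 0.479% ± 0.104 at 18h (exact permutation test, two-sided p = 0.2, where 0.1 is the smallest p that 3 against 3 libraries allow).

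Between 12h and 18h, 1708 of 23475 tested genes, or 7.28%, were called, meaning an adjusted p under 0.05 and a change of at least 2-fold. Of these, 726 genes (3.09% of those tested) were higher at 18h and 982 (4.18%) were lower. The counts of called list members given below are to be read against these shares. At least a 4-fold change was reached by 220 of the genes called higher and 257 of those called lower. Without a minimum on the fold change, 2848 genes were higher (12.1%) and 3783 lower (16.1%). The levels of the 12h and 18h libraries did not overlap for 1651 of the 1708 called genes, which the calling itself favours. Over all tested genes, 20.5% were higher and 28.4% lower at 18h without overlap. The median log2 fold change of all tested genes was -0.04. A level was treated as at the floor when no library of the group held more than 3 fragments (7.89 counts). Among the called genes 79 were at this floor at 12h and 109 at 18h, and their fitted fold changes are not sizes.

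**Figure D1:**
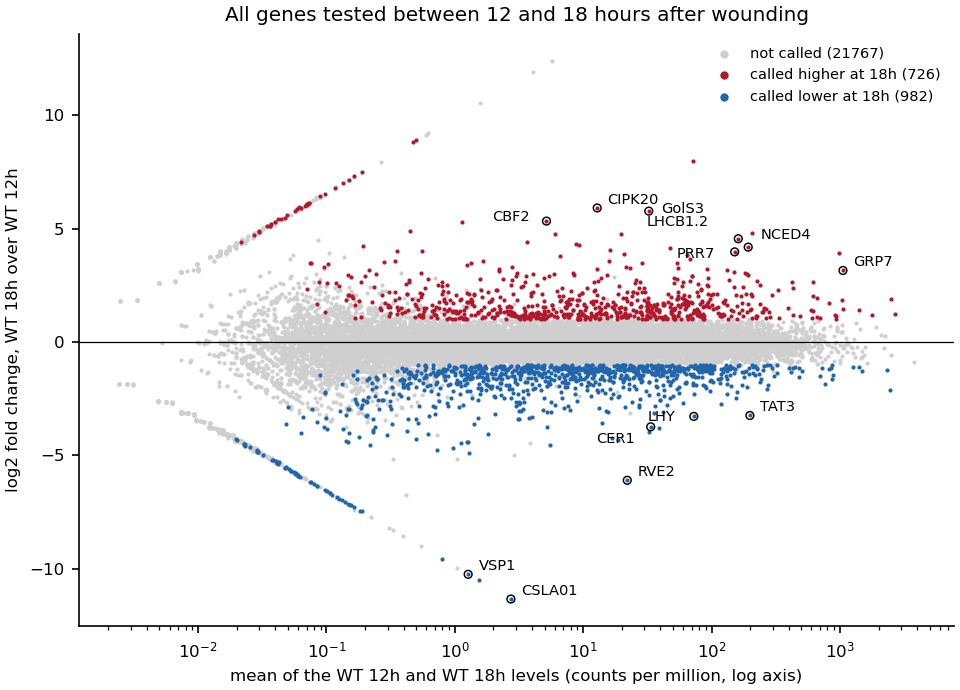
Each point is 1 gene, with the mean of its 12h and 18h levels in CPM (log axis) against its log2 fold change, 18h over 12h. The 726 genes called higher are red and the 982 called lower are blue. Points on the outer diagonals have no counts, or almost none, in 1 of the groups.

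The circadian clock of plants is built from transcription factors that repress each other in turn. The MYB-like factors CCA1 and LHY peak around dawn and repress evening genes through a DNA motif called the evening element. Pseudo-response regulators (PRR9, PRR7, PRR5 and TOC1) follow through the day and repress CCA1 and LHY, and the evening complex of ELF3, ELF4 and LUX closes the loop. Over the interval CCA1 and LHY fell, and PRR9, PRR7 and PRR5 rose. Of 13 morning-phased clock genes, 5 (38.5%) were called lower and 4 (30.8%) higher, where 4.18% and 3.09% of all genes were. Of 14 evening-phased clock genes, 6 were called higher and 1 lower.

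LHY stood at 129, 134 and 132 CPM in the 12h libraries and at 17.3, 13 and 10.4 CPM in the 18h libraries. Every 18h library was thus far below every 12h library, a log2 fold change of -3.28 ± 0.32 (SE, adjusted p = 2.22e-12). CCA1, its partner, fell from 67.8, 71.9 and 74.2 CPM to 34.5, 32.7 and 32.3 CPM (-1.11 ± 0.23, adjusted p = 1.31e-04). The related factor RVE2 went from 39.7, 42.1 and 48.8 CPM to 0.418, 0.738 and 0.709 CPM, the steepest fall among the clock genes with -6.10 ± 0.33 (adjusted p = 6.55e-22). More relatives moved the same way. RVE8, an activator of evening genes, averaged 71.3 CPM at 12h and 13.5 CPM at 18h (-2.40). RVE1, a regulator of auxin synthesis, averaged 27.7 and 3.28 CPM (-3.07), and BOA, a homologue of LUX, averaged 5.90 and 0.692 CPM (-3.06).

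PRR7 rose from 17.9, 17 and 19.3 CPM to 283, 288 and 285 CPM, with almost no spread among the 18h libraries (log2 fold change 3.98 ± 0.11, adjusted p = 1.52e-34). PRR9, which precedes PRR7 in the daily wave, stood at 3.58, 4.02 and 4.12 CPM and then at 41.6, 41.6 and 34.6 CPM (3.33 ± 0.25, adjusted p = 4.85e-16). PRR5 went from 15.5, 16 and 17.6 CPM to 130, 119 and 123 CPM (2.92 ± 0.16, adjusted p = 2.65e-22). In all 3 genes the groups were far apart. TOC1, the last of the wave, was at 73.1, 74.7 and 74.2 CPM at 12h and at 63.7, 71.6 and 80.5 CPM at 18h. Its groups overlapped and it was not called (-0.04 ± 0.13, adjusted p = 0.874).

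The evening-phased genes GI and FKF1, whose proteins together control the flowering regulator CO, rose as well. GI went from 33.5, 31.9 and 30.2 CPM to 250, 275 and 280 CPM (3.08 ± 0.15, adjusted p = 2.36e-23). FKF1 went from 9.50, 8.98 and 8.16 CPM to 94.6, 97.2 and 103 CPM (3.47 ± 0.18, adjusted p = 7.22e-23). The RNA-binding proteins GRP7 and GRP8, which form a slave oscillator of the clock, rose from a mean of 213 to 1900 CPM (3.16) and from 137 to 718 CPM (2.39). No member of the evening complex was called: ELF4 had a log2 fold change of -0.20 ± 0.14, LUX 0.19 ± 0.13, and ELF3 averaged 69.6 CPM at 12h and 55.3 CPM at 18h. RVE7 (2.81) and LNK1 (2.11), counted above with the morning-phased genes, were called higher. So was the CCA1 repressor CHE (1.36), counted with the evening-phased ones.

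Each of these changes can be set against the intervals before and after, which share libraries with it. LHY averaged 1.53 CPM at 6h, 132 at 12h, 13.5 at 18h and 3.37 at 1D. PRR7 averaged 67.7 CPM at 6h, 18.1 at 12h, 285 at 18h and 197 at 1D. GI averaged 150 CPM at 6h, 31.9 at 12h, 269 at 18h and 306 at 1D. LHY and CCA1 therefore fell after a rise, and PRR7 and GI rose after a fall. High levels of all 4 had also occurred soon after the cut. At 1h and 2h LHY averaged 103 and 25.3 CPM and CCA1 158 and 84 CPM. PRR7 averaged 220 and 254 CPM and GI 113 and 258 CPM at these times. The change from 12h to 18h minus the change from 6h to 12h was -9.70 on the log2 scale for LHY (adjusted p = 1.58e-21), 5.89 for PRR7 (3.81e-30) and 5.31 for GI (4.18e-22). By this test of the difference 3428 genes, or 14.6% of those tested, changed differently in the 2 intervals, and the next interval differed for 2469 genes (10.5%). Taken alone, the 6h to 12h interval had 2508 called genes (10.7%) and the 18h to 1D interval 1183 (5.04%).

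**Figure D2:**
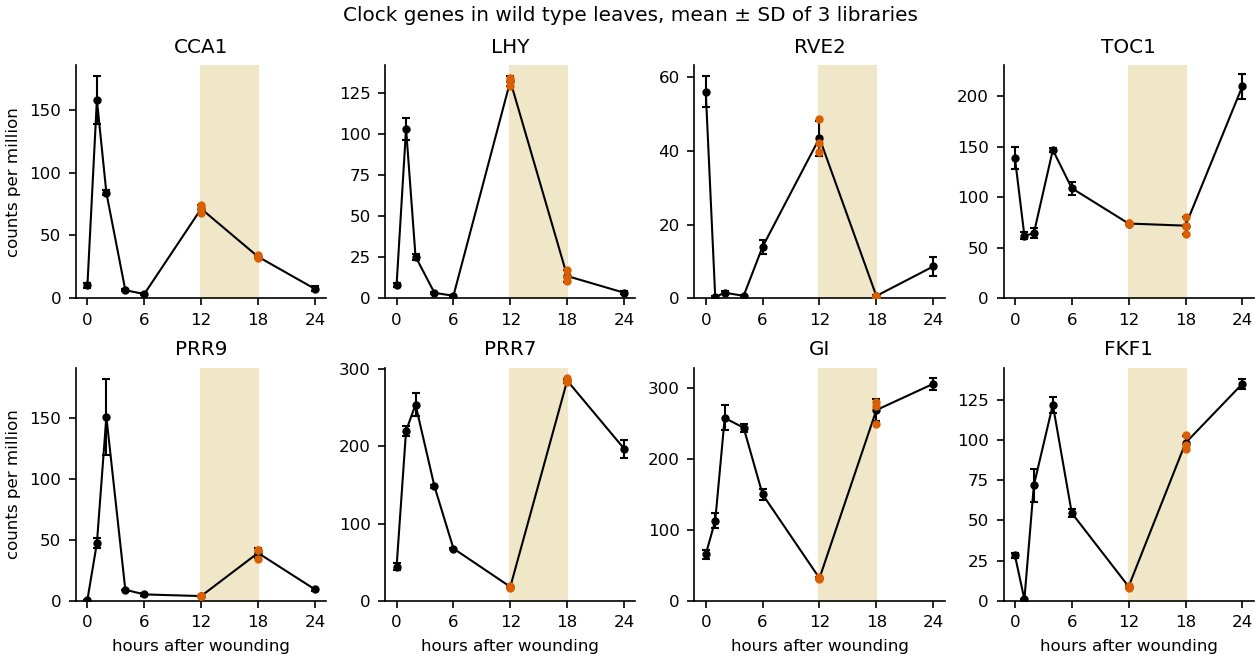
Levels of 8 clock genes in wild type leaves over the first day after wounding, in CPM (mean ± SD, n = 3), with the 12h to 18h interval shaded and its single libraries in orange. CCA1, LHY and RVE2 fall within the shaded interval, PRR9, PRR7, GI and FKF1 rise, and TOC1 stays between 63.7 and 80.5 CPM.

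The 300 bases before the annotated start of each gene were searched for the evening element (AAAATATCT) and the G-box (CACGTG), the core motif bound by many bHLH and bZIP factors, on both strands. These motifs cannot share bases with each other. Of 23280 genes with such a window, 2.86% held an evening element, against 69 of 719 genes called higher (9.60%) and 15 of 980 genes called lower (1.53%). A G-box was held by 7.64% of all windows, 7.79% of those of genes called higher and 11.7% of those of genes called lower. Of the 7 called evening-phased clock genes 5 held an evening element, 4 that rose (PRR5, FKF1, GRP7 and GRP8) and BOA, which fell and also held a G-box. GI and CHE, which rose, held neither motif. Among all 14 evening-phased genes 7 held an evening element, including TOC1 and LUX, which were not called. LUX also held a G-box. Of the 9 called morning-phased clock genes 6 held a G-box: PRR7 and PRR9, which rose, and LHY, CCA1, RVE1 and RVE2, which fell. RVE7, which rose, held an evening element. These matches are descriptions of the sequence and not of binding.

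The windows below are examples of these motifs in called clock genes, from windows that overlap no other gene, and those of BOA, RVE7, PRR9, CCA1 and RVE1 are not shown. They were read from the RefSeq TAIR10.1 genome, 5′ to 3′ on the strand of the gene, with the motif in capitals in either orientation (AGATATTTT is the evening element on the other strand). The first 3 belong to evening or day genes that rose and hold the evening element, and the last 3 hold a G-box. PRR5 is on the minus strand at chr5:8358547-8358846, FKF1 on the plus strand at chr1:25508339-25508638 and GRP8 on the minus strand at chr4:18275217-18275516. PRR7, which rose, is on the minus strand at chr5:642031-642330. LHY and RVE2, which fell, are on the minus strand at chr1:37872-38171 and chr5:14753089-14753388.
PRR5: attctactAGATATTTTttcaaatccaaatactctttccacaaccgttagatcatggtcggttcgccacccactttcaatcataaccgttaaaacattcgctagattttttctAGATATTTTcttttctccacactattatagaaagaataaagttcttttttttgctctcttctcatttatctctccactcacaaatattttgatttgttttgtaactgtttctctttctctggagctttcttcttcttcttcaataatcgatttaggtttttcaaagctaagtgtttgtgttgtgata
FKF1: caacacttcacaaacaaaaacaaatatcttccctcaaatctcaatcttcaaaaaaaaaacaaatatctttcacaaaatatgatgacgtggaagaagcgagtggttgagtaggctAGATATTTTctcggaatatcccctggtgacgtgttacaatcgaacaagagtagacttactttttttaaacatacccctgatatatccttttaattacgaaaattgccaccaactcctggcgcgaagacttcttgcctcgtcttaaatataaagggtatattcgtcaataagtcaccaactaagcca
GRP8: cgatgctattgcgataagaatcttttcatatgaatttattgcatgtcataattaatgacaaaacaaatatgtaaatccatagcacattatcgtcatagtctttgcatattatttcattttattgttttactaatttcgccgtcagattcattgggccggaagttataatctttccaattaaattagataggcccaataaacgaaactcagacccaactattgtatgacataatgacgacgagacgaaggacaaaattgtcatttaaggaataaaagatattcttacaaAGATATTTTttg
PRR7: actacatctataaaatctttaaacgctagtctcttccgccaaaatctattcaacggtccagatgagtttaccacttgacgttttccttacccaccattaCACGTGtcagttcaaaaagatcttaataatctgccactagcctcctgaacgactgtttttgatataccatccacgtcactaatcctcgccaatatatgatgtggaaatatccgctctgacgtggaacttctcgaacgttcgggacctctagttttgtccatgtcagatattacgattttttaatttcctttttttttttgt
LHY: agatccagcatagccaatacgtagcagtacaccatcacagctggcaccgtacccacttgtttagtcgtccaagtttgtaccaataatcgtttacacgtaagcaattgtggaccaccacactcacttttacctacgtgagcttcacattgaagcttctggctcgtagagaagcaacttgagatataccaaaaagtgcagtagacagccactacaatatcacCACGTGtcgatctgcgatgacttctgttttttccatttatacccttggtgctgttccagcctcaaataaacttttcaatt
RVE2: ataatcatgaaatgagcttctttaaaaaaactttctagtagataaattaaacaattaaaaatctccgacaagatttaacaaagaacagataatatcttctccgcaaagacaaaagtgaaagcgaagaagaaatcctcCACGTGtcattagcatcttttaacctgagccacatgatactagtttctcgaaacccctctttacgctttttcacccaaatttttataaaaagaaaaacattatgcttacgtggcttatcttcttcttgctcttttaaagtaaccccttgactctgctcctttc

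Genes for light harvesting rose as a group. Chlorophyll a/b-binding antenna proteins are encoded in the nucleus by the LHCA (photosystem I) and LHCB (photosystem II) genes, and they capture light for the reaction centres. Of the 39 nuclear genes listed for photosystems, antenna and Rubisco, 17 were called higher and 2 lower, with a median log2 fold change of 0.82 against -0.04 over all genes. All 16 antenna genes of the list had an adjusted p under 0.05 and a higher level in every 18h than in every 12h library, which held for 20.5% of all tested genes, and 14 of them were called higher. Their median log2 fold change was 2.28, and the exceptions, LHCA2 (0.94) and LHCB4.1 (0.67), rose by less than 2-fold. LHCA2 passed that limit without replicate 1 or replicate 2 of 18h (1.05 and 1.06).

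LHCA4 stood at 161, 169 and 172 CPM at 12h and at 943, 914 and 1330 CPM at 18h (2.67 ± 0.17, adjusted p = 2.55e-19). LHCB2.1 went from 35.9, 41.3 and 41.4 CPM to 289, 261 and 421 CPM (3.03 ± 0.28, adjusted p = 2.84e-13). LHCB1.2 went from 11.2, 13 and 15.4 CPM to 225, 249 and 455 CPM (4.56 ± 0.42, adjusted p = 4.07e-13). Replicate 3 of 18h was the highest of the 6 libraries for all 16 antenna genes, with the other 18h libraries still above every 12h library. LHCB1.5 had 1.68, 0 and 0 CPM at 12h and 96.1, 72.5 and 259 CPM at 18h, and was called with an adjusted p of 0.00281. The LHCB1 and LHCB2 genes have near-identical copies (LHCB1.2 and LHCB1.1 match at 93.6% identity, LHCB2.1 and LHCB2.2 at 94.3%, LHCB1.5 and LHCB1.4 at 91.4%), so the split of reads between copies is uncertain.

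Photosynthesis genes with other roles moved by less or the other way. The 4 Rubisco small subunit genes and Rubisco activase, which work in carbon fixation, all had lower levels at 18h with an adjusted p under 0.05. RBCS2B, which averaged 218 CPM at 12h and 44.6 CPM at 18h (-2.29), and RBCS3B, with 611 and 282 CPM (-1.12), were called. RBCS1A averaged 1830 and 1160 CPM (-0.66). Of the other 18 photosystem and electron transport genes, PSAD1 (1.5), PSAO (1.31) and PSBQ2 (1.2) were called higher and none lower. Without the fold minimum 12 of these 18 were higher and 2 lower, their median log2 fold change was 0.52, and replicate 3 of 18h was the highest of the 6 libraries for 15 of them. PSBS, needed for heat dissipation of excess light, was among the lower with a log2 fold change of -0.90. Single libraries decided some of these calls: RBCS3B fell short of 2-fold without replicate 2 of 18h (-0.97), and without replicate 3 of 18h PSBQ2 did so (0.98) while PSBS passed it (-1.01). In whole leaf tissue fewer cells of a type and less RNA per cell cannot be told apart. The summed level of the 39 genes was 14300 to 14600 CPM in the 12h libraries and 18100 to 25700 CPM in the 18h libraries.

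**Figure D3:**
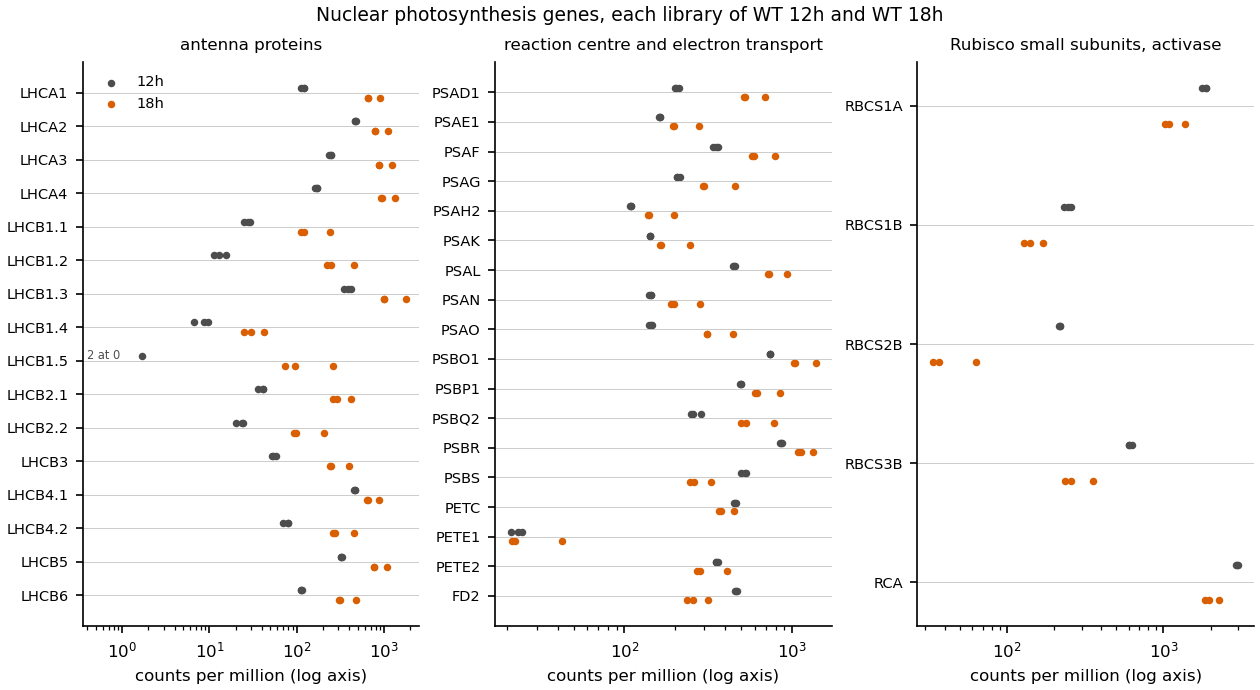
Level of each nuclear photosynthesis gene in each of the 3 libraries of 12h (grey) and 18h (orange), in CPM on a log axis. All 16 antenna genes lie higher at 18h, all 5 Rubisco and activase genes lie lower, and the right-most 18h point of each antenna gene is replicate 3.

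Light signalling genes split in both directions: 4 of 19 tested were called higher and 6 lower. PIF4 and PIF5, bHLH factors that promote growth in the dark and shade, rose. PIF4 went from 8.04, 8.75 and 8.42 CPM to 100, 116 and 144 CPM (3.84 ± 0.13, adjusted p = 1.14e-31), and PIF5 from 18.8, 18.7 and 17.3 CPM to 98.8, 112 and 144 CPM (2.69 ± 0.16, adjusted p = 4.53e-20). PIF1 (1.11) and the B-box factor BBX28 (2.95) were also higher, but PIF1 was below 2-fold without replicate 3 of 18h (0.96). HY5 and HYH, the bZIP factors that promote light responses, averaged 19 and 26.3 CPM at 12h and 5.05 and 6.19 CPM at 18h (-1.91 and -2.09). The early light-induced proteins ELIP1 (-1.98) and ELIP2 (-2.86) fell as well, as did CO (-1.77) and its homologue COL1 (-2.30).

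Genes for starch breakdown and for low sugar rose in part. Of 16 starch degradation genes, 5 were called higher and 2 lower. The disproportionating enzyme DPE1 stood at 25.5, 25.6 and 25.5 CPM and then at 87.3, 93.2 and 110 CPM (1.92 ± 0.10, adjusted p = 3.77e-23), and the chloroplast alpha-amylase AMY3 at 76.5, 81.8 and 80.6 CPM and then at 246, 265 and 287 CPM (1.74 ± 0.10, adjusted p = 3.12e-21). GWD1, which phosphorylates starch to open it for breakdown, ISA3 and DPE2 rose by 1.18, 1.05 and 1.06 on the log2 scale. The members that fell were beta-amylases: BAM9, reported to lack catalytic activity, went from 66.3, 74.8 and 78.2 CPM to 4.16, 4.77 and 6.68 CPM (-3.81 ± 0.17, adjusted p = 2.73e-25), and BAM5 from a mean of 1300 to 474 CPM (-1.45). Of 12 starch synthesis genes none was called higher and 2 were lower, GBSS1, which makes amylose (712 to 242 CPM, -1.55), and the glucose 6-phosphate translocator GPT2 (-1.03). The call of GPT2 was lost without any single library except replicate 2 of 12h (adjusted p 0.0524 to 0.148). Of 22 sugar starvation and dark genes, 6 were called higher and 1 lower. Among the higher were SEN1, a dark-induced gene (0.943 to 6.04 CPM, 2.67), and TPS8 and TPS11, trehalose-phosphate synthase-like proteins (2.03 and 1.71), but the classic dark marker ASN1 was near 0 in both groups (0.157 and 0.0591 CPM). KMD4, an F-box protein gene, went from 38.6, 54.3 and 54 CPM to 117, 159 and 176 CPM (1.62 ± 0.37, adjusted p = 4.53e-04). The member that was lower, DIN9 (-1.06), was below 2-fold without replicate 1 or replicate 2 of 12h (both -0.97) or replicate 1 of 18h (-0.77).

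Of 9 nitrate assimilation genes, 2 were called lower. NIA2, the main nitrate reductase of leaves, fell from 244, 270 and 277 CPM to 113, 117 and 92.1 CPM (-1.29 ± 0.28, adjusted p = 2.91e-04), and the nitrate transporter and sensor NRT1.1 fell by 1.16 on the log2 scale. At 1D, NIA2 stood at 3220 ± 207 CPM (SD, n = 3), and the difference between the 12h to 18h and the 18h to 1D changes was -6.19 (adjusted p = 9.28e-13).

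Cold-regulated genes rose, with 8 of 12 called higher, none lower and a median log2 fold change of 1.35. CBF1, CBF2 and CBF3 are AP2-type transcription factors that switch on the COR genes of cold acclimation, and their transcripts are also gated by the clock. CBF3 went from 1.36, 1.72 and 2.28 CPM to 30, 30 and 30.7 CPM (4.08 ± 0.35, adjusted p = 2.60e-14). CBF2 went from 0.118, 0.262 and 0.374 CPM to 5.61, 6.48 and 18.3 CPM (5.34 ± 0.72, adjusted p = 2.68e-08), and CBF1 from 0.185, 0.189 and 0.617 CPM to 2.83, 3.82 and 14.2 CPM (4.43 ± 0.58, adjusted p = 1.62e-08). Replicate 3 of 18h was the highest of the 6 libraries for 9 of the 12 genes, and more than 2-fold higher than the other 18h libraries for CBF1 and CBF2, but not for CBF3. Without it the log2 fold change of CBF2 was 4.61 and that of CBF1 3.39, both still called. Among the COR genes, COR15B rose from 18.1 to 100 CPM (2.47), COR47 from 340 to 886 CPM (1.38) and COR413PM1 from 160 to 399 CPM (1.32). COR15A (0.88, adjusted p = 0.114), KIN1 (0.04), ZAT10 (0.80, adjusted p = 0.282) and ZAT12 (-0.23) were not called. Dehydration genes in general did not move together: of 30 abscisic acid genes 2 were called higher, RD29A (771 to 2060 CPM, 1.42) and the low-level receptor PYL6, and 3 lower, among them the phosphatases HAI1 (-2.56) and HAB1 (-1.34). The third, NCED5 (-1.11), lost its call without replicate 1 or 3 of 12h or replicate 2 or 3 of 18h (adjusted p 0.0517 to 0.121), as did PYL6 without replicate 3 of 12h or replicate 1 of 18h (adjusted p = 0.135 and 0.106).

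Genes for flavonoids and anthocyanins, the phenolic sunscreens and red pigments of leaves, fell: 11 of 15 were called lower, none higher, and the median log2 fold change was -1.21. FLS1, the enzyme for flavonols, went from 34.2, 19.4 and 23.5 CPM to 1.85, 2.21 and 2.31 CPM (-3.59 ± 0.37, adjusted p = 2.00e-11). Its activator MYB111 went from 13.6, 8.25 and 8.01 CPM to 0.876, 1.46 and 1.2 CPM (-3.07 ± 0.41, adjusted p = 1.66e-08). A second activator, MYB12, was below 1 CPM in all 6 libraries and was called (-1.82) with an adjusted p of 0.0448, which rose to between 0.062 and 0.153 without any single library. F3H stood at 186, 191 and 240 CPM and then at 77.6, 56.1 and 35.4 CPM (-1.87 ± 0.35, adjusted p = 2.10e-05), and CHS, the entry enzyme, averaged 1150 and 499 CPM (-1.21). The anthocyanin regulators MYB75 (-1), MYB90 (-1.06) and TT8 (-1.41) were called lower, while the late enzymes DFR (-0.47, adjusted p = 0.53) and LDOX (-0.87, adjusted p = 0.171) were not called. Every 18h library was below every 12h library for all 15 genes, which held for 28.4% of all tested genes, and replicate 3 of 18h was the lowest of the 6 libraries for 12 of them. Without that library 5 of the 15 genes were called, all lower, and without replicate 3 of 12h 7 were. CHS (adjusted p = 0.0965), MYB75 and MYB90 (both -0.85) were among the calls lost without replicate 3 of 18h, CHS also without replicate 3 of 12h (adjusted p = 0.0535) and MYB75, which lies at the limit, also without replicate 1 or 3 of 12h or replicate 2 of 18h (-0.99, -0.9 and -0.99), whereas FLS1, MYB111 and F3H were called without any single library. Upstream, PAL2 (366 to 117 CPM, -1.65) and 4CL3 (103 to 15.8 CPM, -2.71) were the only ones of 27 phenylpropanoid and lignin genes that were called.

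**Figure D4:**
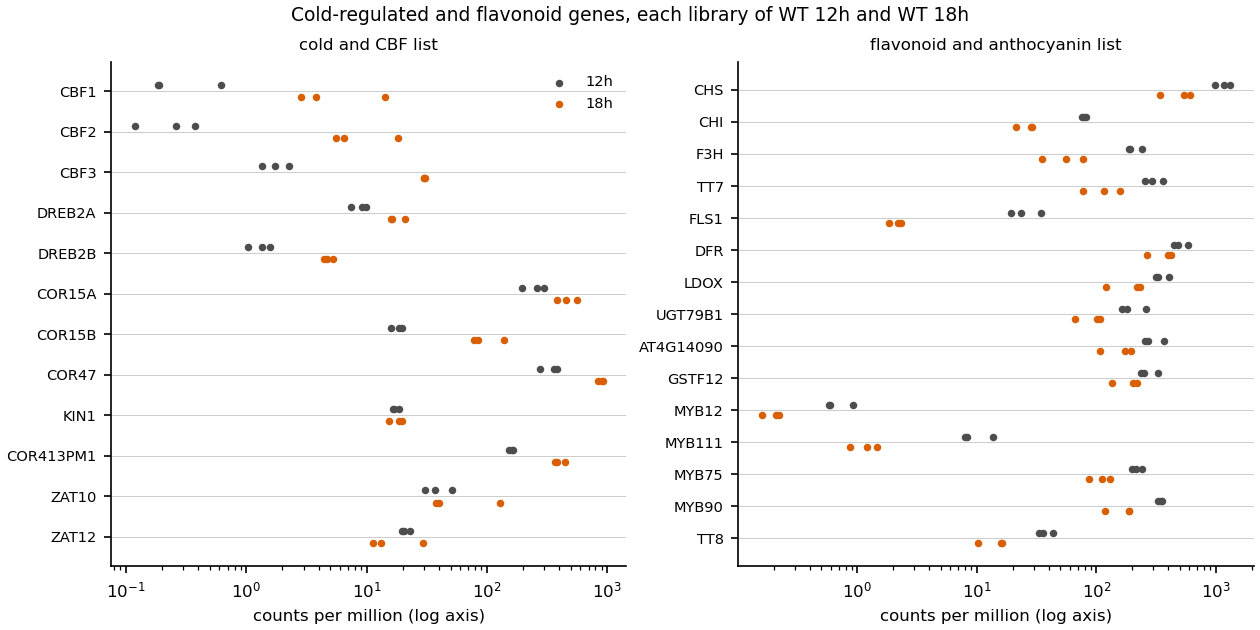
Level of each gene of the cold and the flavonoid lists in each of the 3 libraries of 12h (grey) and 18h (orange), in CPM on a log axis. The 3 CBF genes lie at or above 2.83 CPM in every 18h library and at or below 2.28 CPM in every 12h library, and all 15 flavonoid genes lie lower at 18h.

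Salicylic acid and cytokinin genes fell in part. Of 26 salicylic acid genes 9 were called lower and none higher, with a median log2 fold change of -0.75. FMO1, which makes the systemic signal N-hydroxypipecolic acid, averaged 6.01 CPM at 12h and 0.766 CPM at 18h (-2.97), and the pathogenesis-related genes PR5 and PR2 averaged 15.2 and 226 CPM at 12h and 2.55 and 59.9 CPM at 18h (-2.58 and -1.92). Without replicate 1 of 12h the value of PR5 was -1.92. PR1 averaged 30 and 6.62 CPM and was not called (-2.19, adjusted p = 0.213). DLO1, a salicylic acid hydroxylase gene, went from 29.8, 22.2 and 16.2 CPM to 5.95, 6.78 and 3.22 CPM (-2.1 ± 0.53, adjusted p = 0.0016). FMO1 was not called without replicate 1 or replicate 3 of 18h (adjusted p = 0.0553 and 0.0715). The 3 type-A response regulators of cytokinin signalling that were called, of 8 tested, were all lower: ARR6 (-1.61), ARR15 (-1.41) and ARR16, which went from 72.2, 65.6 and 78.4 CPM to 26.7, 27.4 and 36.6 CPM (-1.25 ± 0.15, adjusted p = 5.52e-10). Without replicate 3 of 18h 5 of the 8 were called lower, and without replicate 1 of 18h only ARR16 was. ARR6 also lost its call without replicate 3 of 12h or replicate 2 of 18h (adjusted p = 0.0896 and 0.0582), and ARR15 without replicate 1 of 12h (adjusted p = 0.0847). None of 18 tested auxin genes was called, but without replicate 1 of 18h IAA1 (1.13) and PIN7 (1.04) were, and without replicate 1 of 12h IAA1 (1.06) was.

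Jasmonate is the main wound hormone, and 4 of 38 jasmonate genes (10.5%) were called lower, where 4.18% of all genes were, and none higher. Without the fold minimum 10 of the 38 were lower and none higher. Of the 4 called genes, VSP1 and VSP2, vegetative storage proteins that respond to jasmonate, fell the most. VSP2 went from 27, 36.7 and 31.5 CPM to 1.91, 1.33 and 1.77 CPM (-4.25 ± 0.74, adjusted p = 6.85e-06). VSP1 had 1.48, 4.15 and 1.98 CPM at 12h and no count in any 18h library, so that it was at least 19.9-fold lower against the floor of 3 fragments per library. The tyrosine aminotransferase TAT3 went from 413, 338 and 328 CPM to 48, 38.5 and 27.6 CPM (-3.24 ± 0.77, adjusted p = 7.90e-04) and CYP94B1, which inactivates the hormone, from a mean of 199 to 65.2 CPM (-1.61). No JAZ repressor gene was called. The biosynthetic gene LOX2 averaged 4900 and 2660 CPM, a fall below 2-fold (-0.88, adjusted p = 3.25e-06).

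Among ethylene genes, the AP2-type factors ERF6 (3.01), ORA59 (2.76) and ERF5 (1.41) were called higher and the receptor ERS2 (-1.34) lower, of 32 tested. ERF6 stood at 3.66 and 4.21 CPM in replicates 1 and 2 of 18h and at 13.6 CPM in replicate 3, without which its log2 fold change was 2.16. ERF5 was not called without that library (0.81, adjusted p = 0.276) or without replicate 1 of 12h (adjusted p = 0.0999), and without replicate 2 of 18h 5 ethylene genes were called higher. Camalexin and indole glucosinolate genes, which make antifungal and anti-insect compounds, divided into 3 higher and 4 lower of 13. The indole-modifying enzymes CYP81F2 (3.03) and IGMT1 (2.46) and the regulator MYB51 (1.09) rose. The camalexin enzyme CYP71A13 (60.9 to 3.94 CPM, -3.97), the shared enzymes CYP79B2 (-1.05) and CYP79B3 (-1.04) and the regulator MYB34 (-1.26) fell. Without replicate 1 of 12h, or without replicate 1 of 18h, 2 of the 13 were called lower. MYB51 lost its call without any single library except replicate 1 of 18h (adjusted p 0.0523 to 0.101). CYP79B2 lost its call without replicate 1 of 12h (-0.94) or of 18h (-0.92), and CYP79B3 without replicate 1 or 2 of 12h (-0.99 and -1) or replicate 1 of 18h (-0.93). IGMT1 and CYP71A13 each have a near-identical copy (IGMT4 at 91% and CYP71A12 at 90.4% identity), and CYP71A12 averaged 48.2 CPM at 12h and 70.7 CPM at 18h.

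Surface lipids bear on the other plants of the series, labelled gpat4 gpat8 after a pair of acyltransferase genes of cutin synthesis. Wax, cutin and suberin genes were called lower or not at all. CER1, required for wax alkanes, went from 71.8, 45.1 and 70.6 CPM to 3.70, 4.15 and 6.16 CPM (-3.74 ± 0.61, adjusted p = 1.88e-06). WSD1, the wax ester synthase, went from 5.33, 2.1 and 2.81 CPM to 0, 0.266 and 0.310 CPM (-4.06 ± 1.00, adjusted p = 0.00153), and with KCS1 (-1.06) these were the 3 of 14 wax genes that were called. KCS1 was at the 2-fold limit, with -0.96 without replicate 1 of 12h and -0.99 and -1 without replicate 2 or 3 of 18h, where it was not called. GPAT4 stood at 80.9, 67.5 and 70.6 CPM and then at 41.1, 39.4 and 45.1 CPM, groups that did not overlap, but its fall was below 2-fold (-0.80 ± 0.10, adjusted p = 4.05e-09). GPAT8 ranged from 0.756 to 4.23 CPM with overlapping groups (-0.29 ± 0.30), but was called lower without replicate 3 of 18h (-1.08, adjusted p = 0.00752). RBOHE, the NADPH oxidase gene of the other mutant, was at most 0.412 CPM in all 6 libraries (-0.23 ± 0.42).

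Of 24 cutin genes tested, CYP86A4 (-1.72), LTPG1 (-1.30) and ABCG13 (-2.57) were called lower and none higher. Without replicate 3 of 18h 8 cutin genes were called lower, and without replicate 1 of 18h 2 were lower and 1, SHN3 (1.97), was higher. ABCG13 lost its call without replicate 1 or 3 of 12h or replicate 1 or 2 of 18h (adjusted p 0.058 to 0.143). Of 22 suberin genes, which build the corky barrier of healing wounds, 4 were called lower and none higher. FAR1, a fatty acyl reductase, went from 100, 63.4 and 76.6 CPM to 13.3, 13.6 and 16.3 CPM (-2.48 ± 0.45, adjusted p = 1.88e-05), and ABCG1 and KCS2 fell by 1.18 and 1.11 on the log2 scale. MYB93 had at most 0.204 CPM at 12h and none at 18h, so no fold is given. It lost its call without replicate 2 of 12h or any single library of 18h (adjusted p 0.0673 to 0.126). Without replicate 2 or replicate 3 of 18h FAR1 was the only suberin gene called, and without replicate 1 or replicate 2 of 12h 2 were. KCS2 lost its call without any single library (adjusted p 0.0707 to 0.116), and ABCG1 without replicate 1 of 12h or replicate 2 or 3 of 18h (adjusted p 0.0579 to 0.0652). The suberin genes ASFT (229 and 144 CPM, -0.67, adjusted p = 0.153) and GPAT5 (20.5 and 14.3 CPM, -0.52, adjusted p = 0.262) were not called.

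Markers of epidermal cells moved unevenly beside these falls. ATML1 and PDF2, the factors that define epidermis, had log2 fold changes of 0.29 ± 0.11 and 0.25 ± 0.11 and were not called, while LTP2 (64.4 to 7.26 CPM, -3.15), LTP1 (455 to 161 CPM, -1.5) and the trichome genes TRY (-2.46) and GL3 (-1.5) were called lower, 4 of 20 tested. The summed level of the list was 1030 to 1150 CPM at 12h and 682 to 843 CPM at 18h, and LTP1 held a large part of it. The median log2 fold change of the list was -0.21, and without the fold minimum 4 members were lower and 2 higher. The guard cell list summed to 369 to 399 CPM and then to 179 to 224 CPM, and its potassium channel KAT1 (318 to 138 CPM, -1.2) was the 1 of 10 markers called. KAT1 made up most of this sum. The median log2 fold change of the guard cell list was -0.04, and without the fold minimum 1 marker was lower and 2 were higher. The phloem list summed to 964 to 975 and 1040 to 1110 CPM and the xylem list to 41.5 to 48.2 and 44.5 to 69.7 CPM, with none called, although without replicate 2 of 18h 2 xylem markers, and without replicate 3 of 12h 1, were called higher. The part of cell composition in the results above was not tested.

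Among wall and repair genes most of the calls were lower. Of 14 wall-loosening genes, 4 (28.6%) were called lower and 1 higher, where 4.18% and 3.09% of all genes were: the expansin EXPA10 (367 to 108 CPM, -1.76), XTH4 (-2.12), XTH22 (-1.60) and XTH9 (-1.57) were the lower ones, and EXPA8 rose from at most 0.356 CPM at 12h to 0.378, 2.73 and 6.13 CPM at 18h. EXPA8 was not called without replicate 3 of 18h (adjusted p = 0.0806), nor XTH22 without replicate 1 or 2 of 18h (adjusted p = 0.0716 and 0.0619). Of 18 wound repair and regeneration factors 2 (11.1%) were lower: the AP2-type genes RAP2.6 (136 to 36 CPM, -1.91) and Rap2.6L (64.5 to 30.2 CPM, -1.09) were called lower, the second of them not without replicate 3 of 18h (-0.98). HSP17.6II (-2.09) and HSFA2 (-1.29), of 13 heat shock genes (15.4%), were called lower. The cyclin CYCB2;2 (-1.37) was the only one of 35 cell division genes called lower (2.86%), a share below the 4.18% of all genes. HSFA2 lost its call without any single library except replicate 2 of 12h (adjusted p 0.0594 to 0.202), and CYCB2;2 was not called without replicate 2 of 18h (adjusted p = 0.0919). No gene was called in the lists for aliphatic glucosinolates (14), ribosome biogenesis (11), folding in the endoplasmic reticulum (9) and senescence (11), except 1 aliphatic glucosinolate gene, higher, without replicate 3 of 12h. At an adjusted p under 0.05 without a fold minimum, 6 of the 14 aliphatic glucosinolate genes were higher and 1 lower, and 4 of the 9 folding genes were lower.

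**Figure D5:**
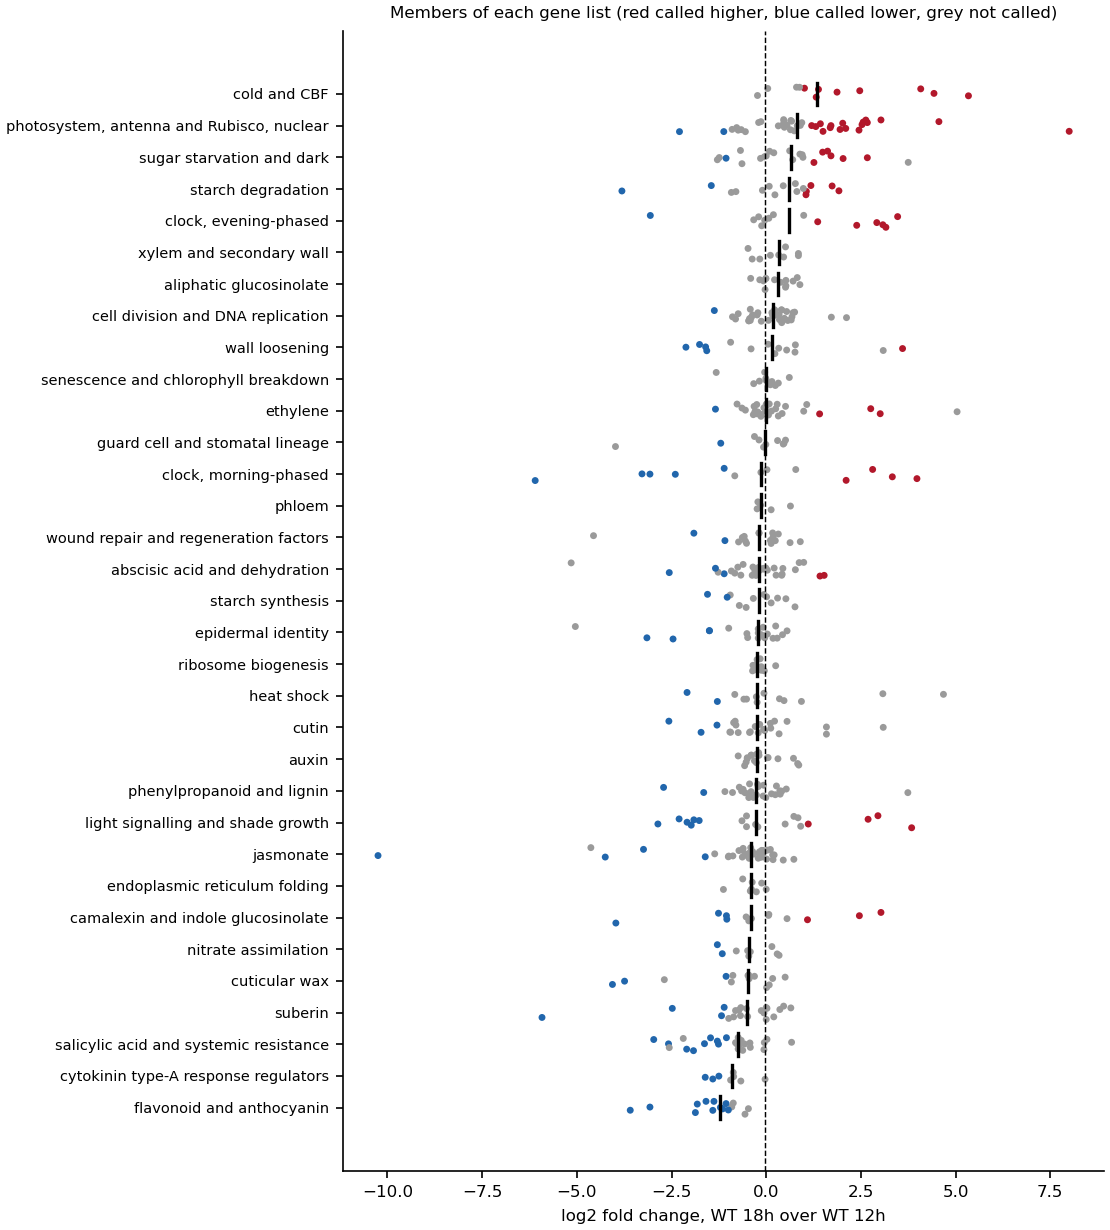
Log2 fold change, 18h over 12h, of every tested member of the 33 gene lists, with the list median as a black bar and the median of all genes (-0.04) as a dashed line. The highest medians are those of the cold (1.35) and photosystem (0.82) lists and the lowest that of the flavonoid list (-1.21).

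Outside the lists, the largest rise was that of CIPK20, a CBL-interacting protein kinase, from 0.353, 0.393 and 0.505 CPM to 25.7, 23.9 and 26.3 CPM (5.92 ± 0.35, adjusted p = 1.93e-20). GolS3, a galactinol synthase that starts raffinose synthesis and responds to cold, went from 0.656, 0.509 and 2.41 CPM to 54.8, 58.1 and 78.4 CPM (5.78 ± 0.64, adjusted p = 2.22e-10, and 6.81 without replicate 3 of 12h). NCED4, a carotenoid cleavage dioxygenase, rose from a mean of 20.1 to 366 CPM (4.19), and KCS8, a fatty acid elongase of the KCS family, from 0.854 to 16.8 CPM (4.32). The unnamed genes AT1G22570 and AT5G62360 each rose by 4.75, and Fes1B by 4.29. These genes, with CBF2, CBF1 and LHCB1.2, made up the 10 largest rises among called genes with at least 50 counts on average, groups apart and no overlapping gene. LHCB1.5 (8.00), which overlaps another gene, lay above them, but replicate 1 of 12h held its only counts at 12h and without it the fitted value (16.01) is no size.

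CSLA01, a cellulose synthase-like gene, had 7.89, 3.26 and 5.28 CPM at 12h and no count in any 18h library, at least 42.9-fold lower against the floor. Its relative ATCSLA15 went from 2.86, 1.92 and 3.12 CPM to 0, 0.266 and 0.325 CPM (-3.62 ± 0.81, adjusted p = 3.76e-04). CSLA01 averaged 31.9 CPM and ATCSLA15 70.5 CPM at 0h, so the averages of both were lower at 12h than at 0h. Their course between was not steady. At 1h and 2h CSLA01 averaged 0.0921 and 16.5 CPM, and ATCSLA15 5.61 and 91.1 CPM. The unnamed genes AT2G10940 (-4.88), AT4G38410 (-4.53) and AT5G17040 (-4.44, and -5.81 or -3.82 without replicate 2 or 3 of 18h) completed the 10 largest falls under the same conditions with VSP1, RVE2, VSP2, WSD1 and CER1.

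Against the start, 3875 genes (16.5%) were called at 12h and 3877 (16.5%) at 18h, with the 0h libraries shared by both. For single genes the levels at 18h and 0h can be read beside each other. LHCA4 averaged 325 ± 44.7 CPM (SD, n = 3) at 0h and 1060 at 18h, FLS1 19.9 ± 5.71 and 2.12 CPM, and CBF3 0.395 ± 0.191 and 30.3 CPM. These 3 genes had also moved earlier: LHCA4 averaged 2210 CPM at 1h, CBF3 13.4 CPM at 2h and FLS1 1.52 CPM at 6h. CER1 averaged 9.69 ± 11.9 CPM at 0h, a spread above the mean, and 4.67 CPM at 18h. RBCS2B averaged 767 CPM at 0h and 44.6 CPM at 18h. Of the 107 genes named by rule, 18 overlap another annotated gene: LUX, RBOHE, FKF1, BOA, LHCB1.5, LHCA4, BAM9, KMD4, FAR1, ABCG1, KCS2, LTPG1, F3H, CBF3, COR15B, CYP71A13, GL3 and ARR6. Whether counting used the strand is not given in the sources used here, so for these genes reads of the partner cannot be told apart.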

How the data were processed

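Messenger RNA of wounded leaves was sequenced in 75 libraries, 3 in each of 25 groups, from column-extracted total RNA and stranded libraries, per the labels' protocols. The authors deposited estimated counts for 32833 genes, from StringTie per the file headers. The submitters' processing notes name Trimmomatic 0.39, HISAT2 2.2.1, StringTie 1.3.4, edgeR 3.19 and the build TAIR10, without their roles. The counts are whole numbers, so no rounding was needed. Low values recur at a spacing of 2.63 counts, so counting error is larger than the counts imply. The floors cover counting error only. The SE and SD given with the values include the spread between libraries.

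Libraries were matched to groups by their titles, with 0 columns left unmatched. Counts were scaled by TMM and tested with edgeR 4.0.16 in R 4.3.3 (filterByExpr at its limits of 10 counts per library and 15 in total, glmQLFit with robust estimation, glmQLFTest) in 1 fit of all 75 libraries with a coefficient per group. The p-values were adjusted by the Benjamini-Hochberg method over 23475 genes. A gene was called at an adjusted p under 0.05 and an absolute log2 fold change of at least 1. Fold changes used a prior count of 0.125, and their standard error (SE) was derived from the F statistic. The fit was also run on simulated counts with known changes, and the outcome is not given here. The changes were set only in genes above a minimum level and the counts lacked the spacing. That run could therefore not check calls at low levels.

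The 33 gene lists, with 608 members of which 592 were tested, and the genes to be named were chosen with earlier results of these data known. Named by rule were 14 clock, cutin and epidermal genes, the 10 largest called rises and falls (mean of at least 50 counts, no overlap between groups or with another gene) and up to 4 called members of each list. Further list members were named after their values were seen. A member at or below the fold limit is given by its value. Gene names and windows come from RefSeq TAIR10.1, in which 32548 IDs matched, and near-identical copies were found with blastn 2.17.0 (at least 90% identity over at least 50% of the length). The alternatives were another scaling, DESeq2 1.42.0, no filter, fewer libraries in the fit, counts divided by the spacing, a replicate block, each replicate left out, and other thresholds and prior counts.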

Additional observations from a re-analysis of the deposited data

Results flagged for a closer look

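The change from 12h to 18h was set against the intervals on either side of it by a test of the difference itself. It differed from the change between 6h and 12h for 3428 genes, 14.6% of those tested, at an adjusted p under 0.05 by edgeR's quasi-likelihood test and a difference of at least 1 on the log2 scale. The 12h libraries enter both sides of this difference. It differed from the change between 18h and 1D for 2469 genes, 10.5% of those tested, and there the 18h libraries enter both sides. LHY, PRR7 and GI are examples of the first set and NIA2 of the second, with the values given above. PRR7 (4.51) and GI (2.89) were in the second set as well, and NIA2 (-1.44) was also in the first.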

How the results depend on the processing

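The direction of the counts and their size, within 1.5 times, held under every alternative run except the fold minimum. Without that minimum the 1708 called genes became 6631, of which 2848 were higher and 3783 lower, because smaller changes then counted. For the other alternatives the number of called genes was 1386 to 1794, with 1794 from DESeq2 and 1386 at an adjusted p under 0.01. Leaving out 1 library gave 1514 to 1659 called genes, 632 to 806 higher and 799 to 882 lower, with 632 higher without replicate 3 of 18h and 806 without replicate 1 of 18h. The share of calls that were higher was 42.5%, and 41.3% to 48.6% under the alternatives. The difference in the plastid share was 0.142 percentage points and ranged from 0.0945 to 0.197 without 1 library.

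Of 107 genes named by rule, 86 kept their call and direction under all alternatives run. Of 1604 alternative values, 75 lost the call, 1 gained it and 4 reversed. The reversals were in genes that were not called. TOC1 (-0.04) became 0.01 with only the libraries compared and ranged from -0.11 to 0.07 without 1 library, the highest without replicate 1 of 18h. GPAT8 (-0.29) ranged from -1.08 without replicate 3 of 18h to 0.14 without replicate 1 of 18h, and RBOHE (-0.23) from -0.50 without replicate 2 of 18h to 0.04 without replicate 3 of 18h. The cause was not tested. Apart from left-out libraries and thresholds, other alternatives also cost calls. With only the libraries compared TPS8 (2.09, adjusted p = 0.0537), GPT2, ABCG13, PYL6 and ARR6 lost theirs. KCS2, MYB12 and HSFA2 did so without the filter, and KCS2 and ABCG1 with only the wild type libraries. MYB93 was not called with counts divided by the spacing, nor MYB12 with the replicate block.

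With the replicate number as a block 1702 genes were called, 709 higher and 993 lower. Deviations of same-numbered libraries correlated at -0.065, 0.041 and 0.009 across genes, and those of differently numbered ones at -0.078 to 0.065. These values show no pairing by number. With 3 libraries per group they cannot exclude that same-numbered libraries were handled together. The low depth of genes below about 1 CPM, where a few fragments make up the level, limits what can be called there.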

Other observations

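Aquaporins, the water channels of the plasma membrane (PIP) and of the vacuole membrane (TIP), were called lower or not at all from 12h to 18h. The family was chosen after its values were seen, so only counts and values are given. Of 27 genes whose RefSeq product names an aquaporin or a plasma membrane or tonoplast intrinsic protein, 23 were tested. Of these 10 were called lower, where 4.18% of all genes were, and none higher, with a median log2 fold change of -1.02. The tonoplast channel GAMMA-TIP averaged 2100 ± 109 CPM (SD, n = 3) at 12h and 868 ± 220 CPM at 18h (log2 fold change -1.27). PIP2A averaged 1730 and 813 CPM (-1.09) and PIP1B 1910 and 903 CPM (-1.08). RD28, a PIP that responds to drought, averaged 434 and 117 CPM (-1.89). PIP2E (0.10) and PIP1;5 (0.20) were not called. At 0h the averages of GAMMA-TIP, PIP2A and PIP1B were 303, 679 and 591 CPM, below those of both later times.

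Xyloglucan endotransglucosylase/hydrolases (XTH), which cut and rejoin wall polymers, were also called lower or not at all. Of 21 tested genes 8 were called lower, where 4.18% of all genes were. This family was also chosen after its values were seen. XTH6 averaged 47.9 CPM at 12h and 6.54 CPM at 18h (-2.86), and XTH24, the gene of the family with the highest level at 18h, averaged 114 and 192 CPM (0.76, a rise below 2-fold). The 3 catalase genes, which remove hydrogen peroxide, took opposite directions. CAT2, the catalase of photorespiring leaves, averaged 1200 ± 38.3 CPM (SD, n = 3) at 12h and 327 ± 18.5 CPM at 18h (-1.87). CAT3 averaged 1070 ± 33.9 and 3970 ± 209 CPM (1.89), and CAT1 averaged 121 and 190 CPM (0.66, below 2-fold). At 1D the averages were 265 CPM for CAT2 and 3520 CPM for CAT3.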
